A study of Mus musculus with 6 samples.

Results

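The genes described here are 10 transcription regulators that act as oncogenes in leukaemias of early progenitor type: the homeobox genes Hoxa7, Hoxa9 and Hoxa10, their cofactor Meis1, and Mef2c, Lyl1, Lmo2, Hhex, Erg and Spi1. They were taken by name from a table of 40808 mouse gene IDs, and each of the 10 names matched 1 ID. The table held RNA counts of spleen from mice that had received a bone marrow transplant, in 2 groups of 3 libraries. Per the labels, splenic leukaemia cells were the material from which RNA was extracted. One group had not received Dox (replicates 4, 5 and 6) and the other had (replicates 10, 11 and 12). The labels give no meaning for Dox, no dose or duration, no gene that it controls, and no strain, age, sex, donor genotype or vector for either group. They do not say whether each library came from 1 animal, so p-values measure the spread between these libraries.

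Normal T cell precursors switch most of these regulators off as they commit to the T lineage. HOXA proteins bind DNA together with MEIS1 and PBX proteins and maintain the self-renewal of blood stem and progenitor cells. LYL1, a basic helix-loop-helix protein, and LMO2, a bridging protein with LIM domains, join a larger complex with GATA factors, LDB1 and E proteins, and HHEX is a homeobox repressor of the progenitor stage. ERG and SPI1 are ETS factors, and MEF2C is a MADS-box factor. Several of these genes are also active outside leukaemia: Spi1 and Mef2c in B cells and myeloid cells, Lmo2 in erythroid precursors and endothelium, Hhex in B cells and endothelium, and Erg in endothelium, megakaryocytes and stem cells. In human T cell leukaemia, a high level of LYL1, LMO2, MEF2C, HHEX or HOXA genes with stem cell features marks the early T cell precursor subtype.

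Promoter sequences are shown for Mef2c, Meis1 and Hhex, 3 genes that were all higher with Dox, because the windows shown differ widely in base composition. Each runs 5′ to 3′ on the gene's strand and covers the 250 bases before an annotated start in RefSeq (GRCm38.p6). The Meis1 window lies wholly inside the span given for the gene below, so it precedes an internal start. The last bases of the Mef2c window also lie inside the span of that gene. Capitals mark the letters GGAAGT or their reverse complement, a form of the ETS core with its flank.
Mef2c, chr13:83503784-83504033, plus strand: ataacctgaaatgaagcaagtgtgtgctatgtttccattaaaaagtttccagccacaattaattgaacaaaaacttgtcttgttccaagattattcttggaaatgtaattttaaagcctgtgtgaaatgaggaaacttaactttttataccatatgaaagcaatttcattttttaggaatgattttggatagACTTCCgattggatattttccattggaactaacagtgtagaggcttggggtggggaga
Meis1, chr11:19018970-19019219, minus strand: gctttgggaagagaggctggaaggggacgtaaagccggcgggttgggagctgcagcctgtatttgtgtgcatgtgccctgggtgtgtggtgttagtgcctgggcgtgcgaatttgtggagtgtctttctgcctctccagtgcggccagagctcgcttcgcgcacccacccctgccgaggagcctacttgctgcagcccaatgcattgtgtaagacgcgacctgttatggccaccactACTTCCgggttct
Hhex, chr19:37434591-37434840, plus strand: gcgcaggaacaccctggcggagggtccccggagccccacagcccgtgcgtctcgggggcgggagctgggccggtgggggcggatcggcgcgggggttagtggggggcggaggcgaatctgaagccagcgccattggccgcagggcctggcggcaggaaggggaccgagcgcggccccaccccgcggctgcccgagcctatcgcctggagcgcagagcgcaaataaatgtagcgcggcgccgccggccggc

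The Mef2c window shown was 33.6% G and C, the Meis1 window 59.6% and the Hhex window 76%, beside a median of 52.4% over 32851 windows of the same length. The other Mef2c windows, at 44.8% and 49.6%, lay nearer to that median and held no GGAAGT. RefSeq windows were matched for 8 of the 10 genes, 13 windows in all, since some genes have several starts. GGAAGT was found on either strand in 3 of the 13, in Mef2c from 58 bases before the start, in Meis1 from 13 bases before it and in Hoxa10 from 59 bases before it, and 19.7% of all windows hold it. The MEIS motif TGACAG was found in 1 Erg window, where 15.9% of all windows hold it, and the GATA site AGATAA in the same Erg window, where 9.99% hold it. GAGGAAGT, which contains GGAAGT, was found in 0 of the 13 windows (2.44% of all), CAGCTG in 0 (13% of all) and the MEF2 site in 0 (3.2% of all). These are matches of letters and not sites of binding.

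Total counts ran from 5541486 to 7729988 without Dox and from 6498193 to 8725767 with Dox, so that 3 counts corresponded to 0.309 to 0.608 normalized CPM (counts divided by a library size that was first adjusted for composition). The libraries with Dox were noisier, with a common biological coefficient of variation of 0.515 against 0.19 without Dox. They also held fewer of the lowest counts: genes with 1 to 3 counts were 15% to 16% of the genes with 1 to 30 counts, against 27.9% to 43% without Dox. Counts of 4 Y-linked genes summed to 545 to 801 without Dox and to 0 in each library with Dox, and Xist, the transcript of the inactive X chromosome, had 193 to 324 counts without Dox and 3347 to 5669 with Dox, so that Dox and the sex of the cells cannot be told apart in any result. Of 14110 genes that passed the filter on low counts, 45.6% were called different (quasi-likelihood test of edgeR with the Benjamini-Hochberg adjusted p under 0.05), which splits into 23.6% higher and 22.1% lower with Dox. Groups of libraries did not overlap in 59.6% of tested genes, with Dox higher in 30.0% and lower in 29.6%. The median log2 fold change of all tested genes was 0.07, and 0.38 when libraries were scaled by their total alone.

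Tested were 7 of the 10 genes, namely Meis1, Mef2c, Lyl1, Lmo2, Hhex, Erg and Spi1. Each of the 7 was called higher with Dox by edgeR, and their groups did not overlap, beside the 23.6% and 30.0% of all tested genes given above. Mef2c, Lyl1, Lmo2, Erg and Spi1 stood above the filter in all 6 libraries (1.47 CPM by total counts, before the adjustment for composition that the printed CPM carry). Hhex did so in 2 of 3 libraries without Dox and Meis1 in 1 of 3, and both passed the filter through the libraries with Dox, so that their rise is tied to their being tested. Hoxa7, Hoxa9 and Hoxa10 did not pass. In bulk RNA such as this, more cells that express a gene and more of its RNA per cell cannot be told apart.

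**Figure D1:**
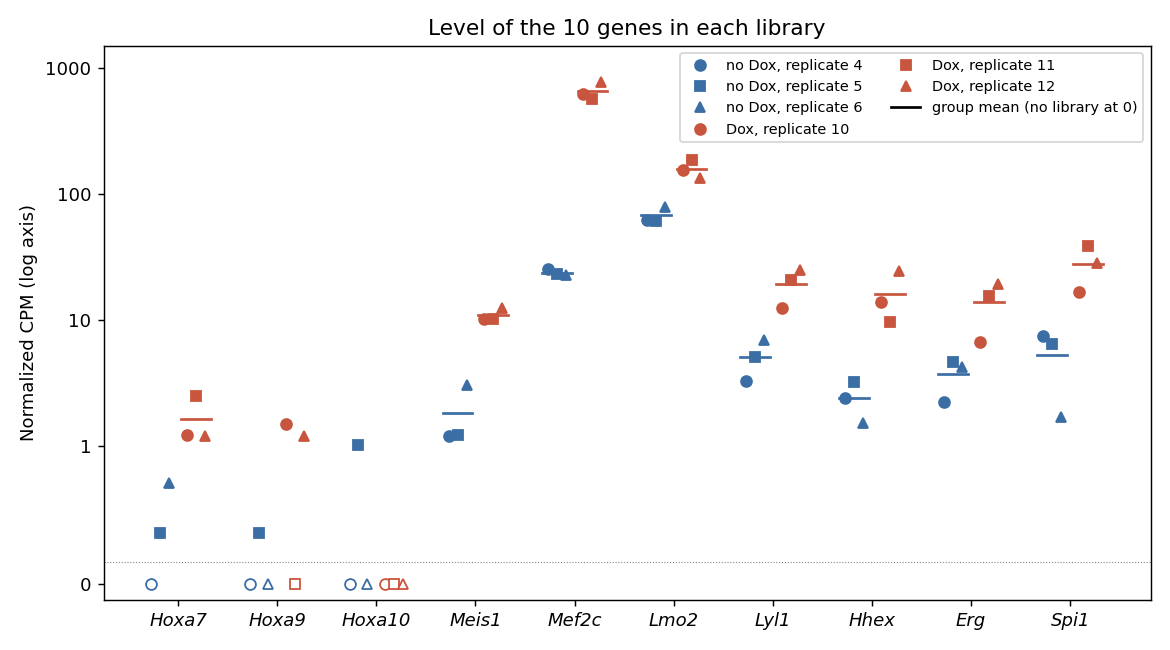
Normalized CPM of the 10 genes (vertical log axis, with 0 drawn as open symbols below the dotted line) in the 3 libraries without Dox (blue) and the 3 with Dox (red); each symbol is 1 library and lines are group means where no library was at 0. Mef2c and Lmo2 lie above the other genes in both groups, and the 3 Hoxa genes lie at or below 2.47 CPM in every library.

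The HOXA genes were near or below the level of detection. Hoxa7 (chromosome 6, 52215623 to 52218573) had 9, 24 and 9 counts in the libraries with Dox, where those without it had 0, 1 and 3. The groups did not overlap, with replicate 11 the highest (exact two-sided permutation p = 0.1, the smallest that 3 against 3 allow). Its count ratio, scaled by total counts without the adjustment for composition, was 9.25 (95% exact interval 3.35 to 35.5, which covers counting error only). The ratio of the mean normalized CPM was 6.86. Hoxa9 (chromosome 6, 52223097 to 52227370), the member most often linked to HOX-driven leukaemia, had 11, 0 and 9 counts in the libraries with Dox, where those without it had 0, 1 and 0. The groups overlapped, since replicate 11 with Dox had none (exact two-sided permutation p = 0.4). Hoxa10 (chromosome 6, 52231197 to 52240854) had 5 counts in replicate 5 without Dox and 0 in the other libraries, and 3 counts in a library with Dox correspond to 0.309 to 0.408 CPM. With no filter on low counts, the 3 genes gave adjusted p = 0.385, 0.412 and 0.293 in edgeR, which shows neither a difference nor its absence at these depths. Reads antisense to Hoxa7 could come from Hoxaas3, which had 3 counts in 1 library without Dox and 0 elsewhere.

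Most of the remaining HOXA genes were sparse too. Of 8 other HOXA genes, Hoxa6, Hoxa11 and Hoxa13 were among those with 0 counts in every library, and only Hoxa5 was tested. Hoxa5 was at 2.37 ± 2.21 CPM without Dox, and at 3.78 ± 1.26 when Dox was given (± SD, 3 libraries a group), and the groups overlapped (edgeR, adjusted p = 0.56). Among 10 HOXB genes 3 were tested and 1 rose, a share near the 23.6% of all tested genes that were higher. This was Hoxb4, a regulator of stem cell self-renewal, at 17.3, 17.6 and 18.8 CPM without Dox and 37.7, 53.1 and 39.9 with Dox (edgeR log2 fold change and SE 1.28 ± 0.24, adjusted p = 0.00171). Every library with Dox was above every library without it. Hoxb4 stood at more than the summed level of Hoxa7, Hoxa9 and Hoxa10 in all 6 libraries.

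Of the genes that switch HOXA genes on, Kmt2a (the MLL methyltransferase) rose from 178 ± 5.86 to 399 ± 61.4 CPM and its leukaemia fusion partner Mllt10 from 111 ± 11.1 to 217 ± 18.5 CPM (± SD of 3 libraries a group; edgeR, adjusted p = 0.000286 and 0.000887). The MLL cofactors fell: Psip1 from 143 ± 2.16 to 52.5 ± 10.4 CPM and Men1 from 23.8 ± 4.08 to 10.7 ± 2.5 CPM (± SD of 3 libraries a group; edgeR, adjusted p = 0.000215 and 0.0122). The other 4 of the 8 tested, Dot1l, Mllt1, Mllt3 and Aff1, did not pass the threshold, and Cdx1, Cdx2 and Cdx4 had 0 counts in all libraries. The median log2 fold change of the 8 was -0.15, beside 0.07 over all tested genes, and the 4 of 8 called are near the 45.6% of all tested genes.

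Meis1 (chromosome 11, 18880428 to 19019651), the DNA-binding partner of HOXA9, was low without Dox and rose with it. Its level was 1.19, 1.22 and 3.05 CPM without Dox, against 10.2, 10.2 and 12.4 CPM with Dox. The 3 libraries with Dox were close together, with a coefficient of variation of 11.6%. In the edgeR fit the log2 fold change and its SE were 2.57 ± 0.57 (adjusted p = 0.0045). Over the fits that left out 1 library each it ran from 2.30 without replicate 4 of the group without Dox (adjusted p = 0.0273) to 3.07 without replicate 6 of that group (adjusted p = 0.00554).

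TALE cofactors that work with HOX and MEIS proteins were tested in 7 of 8 cases, with 2 higher and 1 lower, near the 45.6% of all tested genes that were called. Meis2, a paralogue of Meis1, rose from 2.18 ± 1.46 to 12.5 ± 7.43 CPM (± SD of 3 libraries a group; edgeR, adjusted p = 0.0129). It was above the filter in 1 of 3 libraries without Dox and so, as Meis1 itself, was tested through the libraries with Dox. Pknox1 fell from 56.2 ± 5.71 to 32 ± 10.3 CPM (± SD of 3 libraries a group; edgeR, adjusted p = 0.0274), a call that was lost with scaling by library size only (adjusted p = 0.13). The other 4 did not pass, and the median log2 fold change of the 7 was -0.28.

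Mef2c (chromosome 13, 83504017 to 83667079) had the largest change of the 10. Its level was 25.5, 23.1 and 22.7 CPM without Dox, from 114 to 171 counts, and 620, 572 and 776 CPM with Dox, from 4557 to 5885 counts. The coefficient of variation without Dox was 6.38%, and the lowest library with Dox was far above them. The ratio of the group means was 27.6 and the edgeR log2 fold change and its SE were 4.78 ± 0.19 (adjusted p = 5.37e-07). Of all tested genes, 1.55% had a log2 fold change at least as high.

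Other members of the MEF2 family did not pass the test. Mef2a was 82 ± 8.82 CPM without Dox and 97.4 ± 10.6 with Dox, and Mef2d was 23.6 ± 1 and 26.9 ± 6.17 CPM (± SD of 3 libraries a group; edgeR, adjusted p = 0.282 and 0.597). Mef2b had 0 counts in all libraries. The fold change of Mef2c was not tested against theirs directly; its log2 fold change was 4.78 ± 0.19 and theirs 0.25 ± 0.18 and 0.18 ± 0.26 (SE). Class IIa histone deacetylases bind MEF2 proteins and hold their targets silent. Hdac9 rose from 5.01 ± 2.14 to 49.2 ± 3.37 CPM and Hdac7 fell from 241 ± 17 to 74.9 ± 2.04 CPM (± SD of 3 libraries a group; edgeR, adjusted p = 5.03e-05 and 2.27e-05), while Hdac4 and Hdac5 did not pass.

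Lmo2 (chromosome 2, 103957903 to 103981878) was the most abundant of the 10 genes without Dox, at 62.1, 61.2 and 79.3 CPM. With Dox it was 154, 185 and 134 CPM. The groups did not overlap, and replicate 12 was the lowest with Dox. The log2 fold change of 1.22 ± 0.19 (SE) was the smallest of the 7 (edgeR, adjusted p = 0.000626), and 23.8% of all tested genes had one at least as high. The antisense gene 4931422A03Rik, which overlaps Lmo2, had 0 counts in all libraries.

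Lyl1 (chromosome 8, 84701423 to 84704716) was 3.28, 5.07 and 6.95 CPM without Dox, against 12.5, 20.6 and 25 CPM with Dox. The highest library without Dox stayed below the lowest with Dox, replicate 10. In the edgeR fit the log2 fold change and its SE were 1.93 ± 0.42 (adjusted p = 0.00443). Lyl1 lies inside the span of Nfix on the other strand. Nfix had 67 to 100 counts without Dox and 228 to 266 with Dox, more than Lyl1 in each library, and whether the counting used strand is not given in the sources used here, so that a share of Lyl1 counts from Nfix cannot be told apart.

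Of 15 genes tested from the complex in which LMO2 and LYL1 work, 3 were higher and 7 lower (median log2 fold change -0.70), beside 23.6% higher and 22.1% lower over all tested genes, so that the higher share is near the background. Gata3, the T lineage GATA factor, fell from 435 ± 21.2 to 9.04 ± 2.42 CPM and Cbfb, the partner of RUNX proteins, from 145 ± 19.6 to 25.4 ± 5.77 CPM (± SD of 3 libraries a group; edgeR, adjusted p = 5.37e-07 and 1.85e-05). Lmo4, Tcf12, Runx1, Ssbp2 and Ssbp4 also fell, although the calls of Runx1 and Ssbp2 were lost with scaling by library size only (adjusted p = 0.1 and 0.17), and that of Ssbp2 also with upper quartile scaling (adjusted p = 0.0509). The E protein gene Tcf4 rose from 162 ± 19.1 to 384 ± 9.44 CPM and the corepressor gene Cbfa2t3 from 65.5 ± 1.89 to 138 ± 13 CPM (± SD of 3 libraries a group; edgeR, adjusted p = 0.000141 and 0.000498). Ldb1, the scaffold of the complex, was 62.5, 79.2 and 69 CPM without Dox and 55.4, 48.4 and 9.49 with Dox, and did not pass (edgeR, adjusted p = 0.164). Gata1 and Gata2, the GATA partners in blood precursors, did not pass either.

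Tal1, the closest relative of Lyl1 and itself a T cell leukaemia oncogene, rose from 77.8 ± 3.73 to 163 ± 56 CPM (± SD of 3 libraries a group; edgeR, adjusted p = 0.00672). Replicate 12 with Dox, at 99.4 CPM, was again the lowest of its group. Of the oncogenes that mark other classes of T cell leukaemia, 3 of 9 were tested. Tlx1 was 1.94, 1.01 and 0.17 CPM without Dox and 6.8, 16.6 and 9.36 with Dox (edgeR, adjusted p = 0.00585), with no overlap; the gene is also required for spleen formation. Like Meis1, it was above the filter in 1 of 3 libraries without Dox and passed it through those with Dox, so its difference is tied to its being tested. Myb fell from 187 ± 4.53 to 83.1 ± 3.35 CPM (± SD of 3 libraries a group; edgeR, adjusted p = 0.000184).

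Hhex (chromosome 19, 37434841 to 37440731), the homeobox repressor, was 2.39, 3.24 and 1.53 CPM without Dox, against 14, 9.67 and 24.5 CPM with Dox. The libraries with Dox differed among themselves, with a coefficient of variation of 47.5%, and replicate 12 was the highest. In the edgeR fit the log2 fold change and its SE were 2.75 ± 0.52 (adjusted p = 0.00185). Without replicate 12 it was 2.29.

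Erg (chromosome 16, 95359169 to 95586600), an ETS factor of stem cells and endothelium, had the weakest test of the 7. It was 2.24, 4.66 and 4.24 CPM without Dox, against 6.67, 15.4 and 19.2 CPM with Dox. Replicate 10 with Dox lay nearer to the libraries without Dox than to the other libraries of its group. In the edgeR fit the log2 fold change and its SE were 1.90 ± 0.53 (adjusted p = 0.0147). Without replicate 4 of the group without Dox it was 1.58 and did not pass (adjusted p = 0.0719, where the other alternatives gave 0.00386 to 0.0487).

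Spi1 (chromosome 2, 91082374 to 91115759), the ETS factor of myeloid and B cells, was 7.46, 6.49 and 1.7 CPM without Dox, against 16.7, 38.3 and 28.2 CPM with Dox. Both groups were spread, with coefficients of variation of 59.2% and 38.9%, but they did not overlap. In the edgeR fit the log2 fold change and its SE were 2.41 ± 0.52 (adjusted p = 0.00417). It was 1.89 without replicate 6 of the group without Dox.

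**Figure D2:**
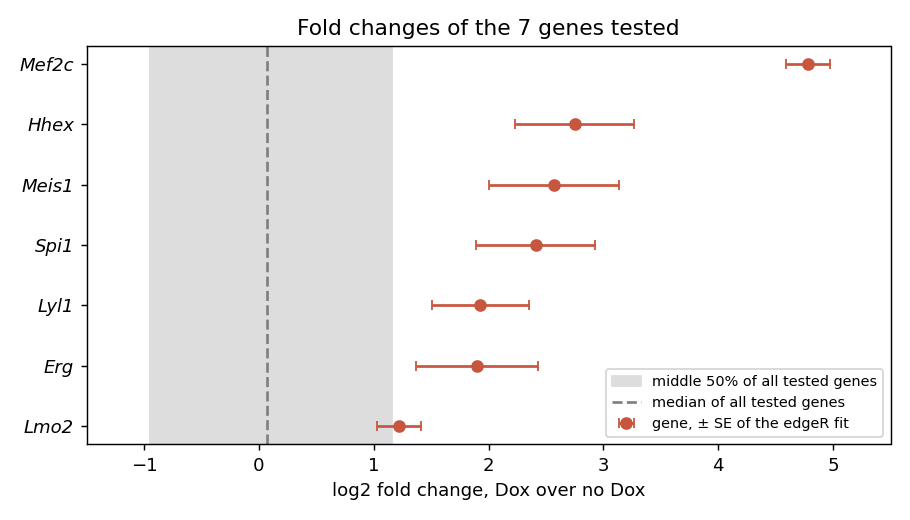
Log2 fold change, Dox over no Dox, of the 7 genes tested (points, with bars of ± 1 SE from the edgeR fit), beside the median (dashed line) and the middle 50% (grey band) of all 14110 tested genes. Mef2c lies at 4.78 and Lmo2, the lowest, at 1.22, just above the upper quartile of 1.16.

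Of 14 other ETS factors tested, 3 were higher and 4 lower, shares near the 23.6% and 22.1% of all tested genes (median log2 fold change -0.22). Spib, the closest relative of Spi1 and a B cell gene, rose from 2.21 ± 1.18 to 71.4 ± 8.93 CPM and Fli1, the closest relative of Erg, from 43.3 ± 6.52 to 164 ± 69.6 CPM (± SD of 3 libraries a group; edgeR, adjusted p = 5.5e-06 and 0.000918). Spib was above the filter in 1 of 3 libraries without Dox and passed it through those with Dox. Fli1 was 84.1 CPM in replicate 12 with Dox, below the 196 and 212 CPM of replicates 10 and 11, whereas Erg was highest in replicate 12. Ets2 fell from 78.5 ± 8.85 to 30.2 ± 12 CPM and Elf1 from 188 ± 16.6 to 108 ± 43.1 CPM (± SD of 3 libraries a group; edgeR, adjusted p = 0.00272 and 0.0284). The calls of Elf1, Ets1 and Etv6 were lost with scaling by library size only (adjusted p = 0.125, 0.278 and 0.17).

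Genes that SPI1 works with or switches on were tested in all 12 cases, with 7 higher and 1 lower (median log2 fold change 1.25), beside 23.6% higher and 22.1% lower over all tested genes. Csf3r, 1 of the 7, was above the filter in 0 of 3 libraries without Dox and was tested through those with Dox. Irf8, a partner of SPI1 on DNA, rose from 31.8 ± 5.96 to 563 ± 50.2 CPM and the integrin gene Itgam from 2.84 ± 0.909 to 51.6 ± 8.38 CPM (± SD of 3 libraries a group; edgeR, adjusted p = 1.05e-06 and 8.8e-06). Cebpb fell from 23.8 ± 4.32 to 5.45 ± 4.07 CPM (± SD of 3 libraries a group; edgeR, adjusted p = 0.00626). Csf1r, the macrophage growth factor receptor and a classic SPI1 target, was 72.2, 82.5 and 98.8 CPM without Dox and 160, 191 and 73.9 with Dox, and did not pass (edgeR, adjusted p = 0.074). Csf1r, Csf3r, Lyz2 and Fcgr1 of this list also belong to the myeloid marker lists.

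**Figure D3:**
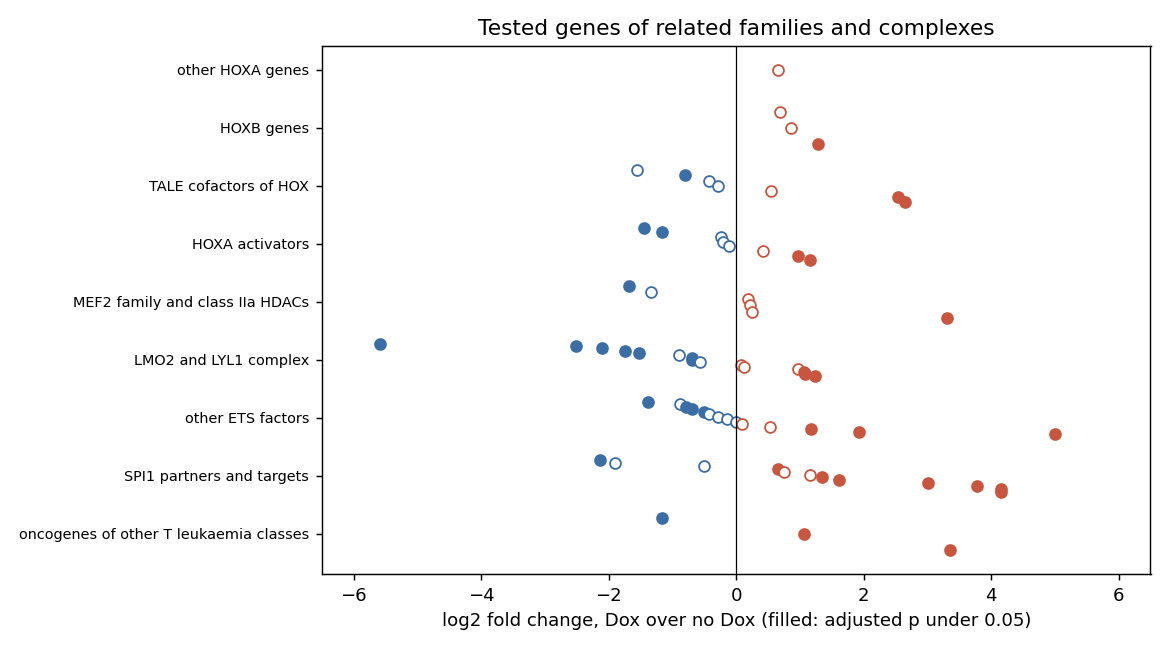
Log2 fold change, Dox over no Dox (horizontal axis), of the tested genes in 9 lists of related families and complexes (rows); red points are higher and blue lower with Dox, and filled points had an adjusted p-value under 0.05. The list of SPI1 partners and targets has 7 filled points to the right, and the LMO2 and LYL1 complex has 7 to the left, among them Gata3 at -5.59.

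Libraries of mRNA 3′ ends give about 1 fragment per transcript whatever its length, so the levels of the 10 genes were also set in order without a length scale. Without Dox the order was Lmo2, Mef2c, Spi1, Lyl1, Erg, Hhex, Meis1, Hoxa10, Hoxa7 and Hoxa9. With Dox it was Mef2c, Lmo2, Spi1, Lyl1, Hhex, Erg, Meis1, Hoxa7, Hoxa9 and Hoxa10. In both groups the libraries of the first 2 genes were apart from each other and from the rest, and the neighbours from Spi1 to Meis1 overlapped. Meis1 lay above Hoxa7, Hoxa9 and Hoxa10 in every library.

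The summed level of the 10 genes averaged 110 ± 8.59 CPM in the group without Dox and 904 ± 102 in the group with it (± SD, 3 libraries a group), and its make-up differed. Mef2c made up 24.5%, 21.7% and 18.9% of the sum without Dox and 74.1%, 67% and 75.9% with Dox. Lmo2 made up 59.6%, 57.5% and 66.1% without Dox and 18.4%, 21.6% and 13.1% with Dox. Lmo2 held the first place in each library without Dox and Mef2c in each library with Dox. Meis1 had a share of 1.19% to 1.22% in the libraries with Dox, against 1.14% to 2.54% without Dox. Its counts, 75 to 99 with Dox and 6 to 18 without, are too few to resolve shares this finely.

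**Figure D4:**
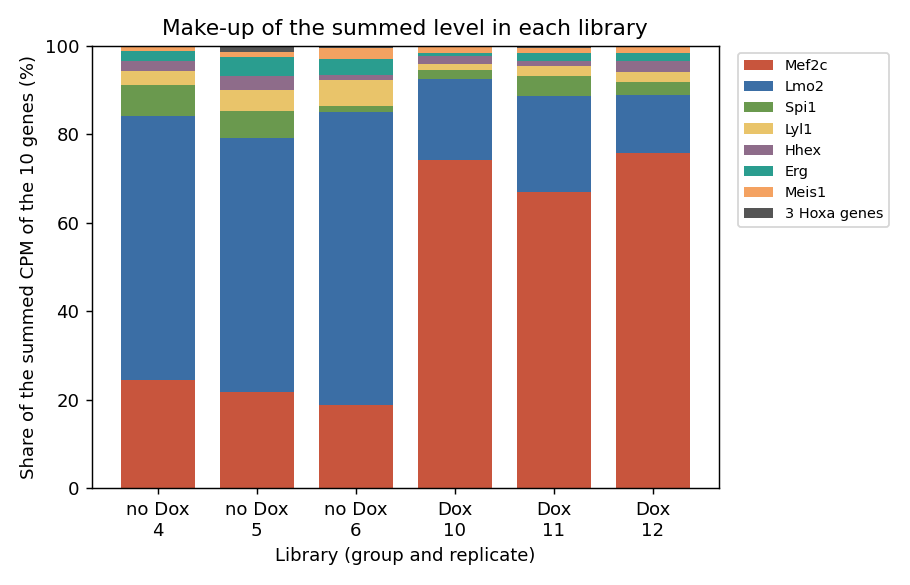
Share of each gene (percent, stacked to 100) in the summed normalized CPM of the 10 genes, for each of the 6 libraries. Lmo2 (blue) takes 57.5% to 66.1% without Dox and Mef2c (red) 67% to 75.9% with Dox.

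The genes did not all follow the same libraries with Dox. Mef2c, Meis1, Lyl1, Hhex and Erg were highest in replicate 12, whereas Lmo2 and Spi1 were highest in replicate 11. Lmo2 was lowest in replicate 12, as were Tal1, Fli1, Ldb1 and Csf1r. For each tested gene, the genes with the most similar pattern were found by Pearson's r of log2 CPM over the 6 libraries. For Mef2c these were Map2k3, Cybb and Sox6 (r = 0.9996, 0.9993 and 0.9993), for Lmo2 Serping1, Tmem131l and Ubr2 (0.9985, 0.9983 and 0.9975), and for Meis1 Katnal1, Psd3 and Kel (0.9983, 0.9975 and 0.9971). Lyl1 was nearest to Trim5, Cyth4 and Ly6c2 (0.9947, 0.9917 and 0.9910), Spi1 to Parp8, Gstt1 and Nup210l (0.9965, 0.9951 and 0.9931), Erg to Piezo2, Aagab and Rab3d (0.9963, 0.9891 and 0.9891), and Hhex to Kdm3b and Add2 (0.9997 and 0.9992). With 6 libraries in 2 groups such values are common: 1512 genes had r over 0.95 with Mef2c and 84 with Erg.

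Markers of cell types that a spleen can hold were set beside these values; each count of called markers is to be read against 23.6% higher and 22.1% lower over all tested genes. The libraries without Dox carried T cell markers at high levels and early progenitor markers at low ones, with Cd34 at 0. The 14 T cell markers summed to 2145 to 2267 CPM without Dox and 271 to 376 with Dox, and 12 were lower with Dox (edgeR, adjusted p under 0.05). Cd3e, a chain of the T cell receptor complex, was 196 ± 25.5 CPM without Dox and 18.8 ± 8.25 with Dox (± SD, 3 libraries a group). The 15 early progenitor markers summed to 107 to 119 CPM without Dox and 462 to 523 with Dox, and 9 of the 13 tested were higher. Kit, the stem cell factor receptor, was 4.92, 4.26 and 2.37 CPM without Dox and 33.2, 53.2 and 37.7 with Dox, with no overlap. Cd34 had 0 counts in each library without Dox and 69, 78 and 50 counts with Dox, while Mycn stayed at 3 counts or fewer in every library.

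Markers of several mature cell types also differed between the groups. All 14 B cell markers were higher with Dox, from a sum of 46.4 to 52 CPM to one of 2383 to 2533 CPM; Ms4a1 went from 4.68 ± 0.623 to 588 ± 18.7 CPM (± SD, 3 libraries a group). All 12 neutrophil markers were higher, from 55.3 to 70.1 CPM to 2306 to 2447 CPM, with Ly6g at 0 counts in each library without Dox. The 8 dendritic cell markers summed to 11.9 to 18.8 CPM and 124 to 135 CPM (7 of 7 tested higher), and the 8 megakaryocyte markers, Pf4 among them, to 64.4 to 75.9 CPM and 259 to 323 CPM (6 of 7 higher). Of 14 endothelial markers 11 were tested and 4 were higher, with sums of 121 to 144 CPM and 235 to 289 CPM. The called ones were Stab2 (10.2 ± 2.05 CPM without Dox and 48.6 ± 9.84 with it), Kdr (11.8 ± 1.77 and 42.4 ± 8.75), Vwf (1.78 ± 1.06 and 12.7 ± 1.22) and Plvap (35.6 ± 3.09 and 85.3 ± 17.5), with no overlap between the groups. Cdh5 was 8.62 ± 2.06 and 8.36 ± 8.06 CPM (± SD, 3 libraries a group), and Emcn and Sox18 had 2 counts or fewer in every library. The 13 monocyte and macrophage markers overlapped between the groups in their sum (731 to 849 CPM and 844 to 1123 CPM), with 2 higher and 3 lower of 13, near those shares of all tested genes, of which C1qc lost its call with library size only (adjusted p = 0.328) and with upper quartile scaling (adjusted p = 0.0712). Erythroid markers summed to 1445 to 1792 CPM and 2297 to 2336 CPM, with 5 higher and 1 lower of 11. The 7 NK and cytotoxic markers summed to 348 to 399 CPM and 17.8 to 27.8 CPM; Gzma made up most of the sum without Dox and had 0 counts with Dox, while Eomes and Nkg7 were higher. By exact two-sided permutation the sums gave p = 0.1, the lowest that the design allows, in 9 of the 10 lists and p = 0.2 for monocyte and macrophage markers, where scaling by library size only gave p = 0.1. Many markers, among them Cd34, Flt3, Blk, Cr2, Ly6g, Mpo, Eomes and Nkg7, were above the filter in no library without Dox and were tested only through those with Dox, so counts of higher markers are tied to the filter. The part of these cell types in the rise of the 7 genes was not tested.

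**Figure D5:**
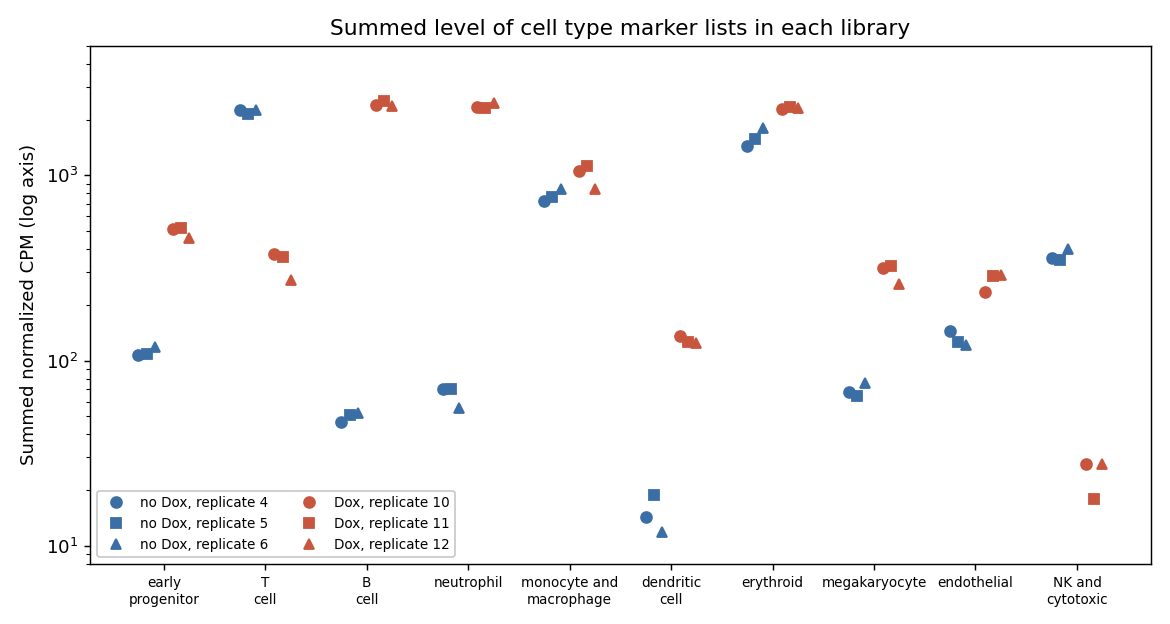
Summed normalized CPM (vertical log axis) of 10 lists of cell type markers in each library without Dox (blue) and with Dox (red); each symbol is 1 library. B cell, neutrophil and dendritic cell sums are higher with Dox by more than any spread within a group. T cell sums are lower, and so are NK and cytotoxic sums, mainly through Gzma, while Eomes and Nkg7 were higher. Monocyte and macrophage sums overlap.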

How the data were processed

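Libraries were made with QuantSeq FWD, a kit that reads the 3′ end of polyadenylated RNA, per the labels' protocols. The authors deposited raw counts per Entrez gene ID for 6 libraries, without pooling; STAR, featureCounts and GRCm38 are named in the submitters' processing notes, while versions, annotation and the use of strand or molecular identifiers are not given in the sources used here. All 6 columns matched a sample by title. Symbols and positions came from RefSeq GRCm38.p6; 96.5% of IDs had a symbol.

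The test used edgeR 4.0.16 under R 4.3.3: filterByExpr (minimum count 10, minimum total 15), TMM scaling, glmQLFit and glmQLFTest on all 6 libraries, Benjamini-Hochberg adjustment over all 14110 genes tested, threshold 0.05. The SE of a fold change is its size divided by the square root of F. Single values were compared by exact permutation. DESeq2 1.42.0 and limma 3.58.1 (voom) were alternatives. The procedure was run on simulated data with few changed genes and the same spread in both groups. That run does not cover the unequal spread or the wide change of these data. Depth limits are given as 3 counts per library and cover counting error only.

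The members, gene lists and alternatives were chosen with earlier results of these data known, and limma-voom with a variance weight for each group was added after the data were seen. Text names all 10 genes, a fixed set of markers, the 3 nearest patterns of each tested gene (of Hhex, the third has no symbol), and from each related list up to 2 genes in each direction with the largest fold change among those called, not overlapping and at a log2 CPM of at least 1. Further names were chosen with their values in view. Some genes that this rule selects are not reported here.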

Additional observations from a re-analysis of the deposited data

How the results depend on the processing

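No paired analysis was possible because no replicate number occurs in both groups. Across 16 alternatives the number of the 10 genes called ran from 5 to 7, all higher with Dox and 0 lower; it was 5 with at least 10 counts in every library, which tests 5 of them, and 6 at an adjusted p-value under 0.01. Of 103 fold changes of single genes under the alternatives, 102 kept their direction and call, 1 kept its direction only and 0 reversed. That was Erg without replicate 4 of the group without Dox, with a log2 fold change of 1.58, in a range of 1.56 to 2.20 over the 6 fits that each left out a library. Fits by limma-voom with a variance weight for each group, an alternative chosen after seeing the data, called all 7. Of 68 related genes tested, 37 were called, 20 higher and 17 lower, beside 45.6% of all tested genes (23.6% higher and 22.1% lower). With library size only 22 were higher and 11 lower, and at an adjusted p-value under 0.01 18 were higher and 10 lower. Library size only also moved the median over all genes from 0.07 to 0.38 (log2) and the share that is higher, out of all called, from 51.6% to 64.3%. At an adjusted p-value under 0.01, 2200 genes of the whole table were higher against 3324 as reported, and 2196 were lower against 3114. Depth limits the 3 HOXA genes most, with 24 counts or fewer in any library.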
